A study of Rattus norvegicus with 16 samples.

Results

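Bone that kept its marrow was compared with marrow-free cortical bone in rats fed excess vitamin A, on 8 of the 16 Affymetrix rat arrays of the series. The 8 arrays were chosen by title, 4 for each tissue, and their tissue fields match their titles. The animals were male Sprague-Dawley rats, 8 weeks old, and RNA came from the shaft of the humerus, cleared of periosteum, epiphyses and growth plates. The vitamin A rats ate pellets with 1700 IU of vitamin A per g, added as retinyl palmitate and retinyl acetate, for 8 days. The control rats ate pellets with 12 IU per g. Each diet had 12 animals, housed in groups of 3, and the cage behind each array is not given in the sources used here. Each array has its own sample code in the labels, and p-values measure the spread between these samples.

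Cortical bone is the dense wall of the shaft. It holds osteocytes buried in mineral, with bone-lining cells and vessels, while the marrow cavity is packed with blood-forming cells, stroma and vessels. Vitamin A acts through retinoic acid, which binds nuclear receptors, and an excess of it in growing rodents is known to thin long bones. Here marrow was removed by vortexing cut pieces of shaft in cold buffered saline, so the comparison sets the shaft with its marrow against the washed wall. By the design text, bone with marrow gave about 4 times as much RNA and was taken to stand mainly for marrow cells. In whole-tissue RNA, fewer cells of a type and less RNA per cell cannot be told apart.

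Values are log2 expression levels made with RMA, a method that corrects background, brings arrays to a common scale and combines the probes that make up a probe set. A step of 1 is a 2-fold change. The table has 31099 rows, each the same feature in every array. The identifier beside a row does not belong to its values, so rows are named by their number, counted from the top of the table, and no gene is named. When 2 rows carried 1 gene symbol, their values correlated over the 16 arrays by a median of only 0.012. The tissues could therefore not be checked against marker genes. Rows listed as erythroid genes had a median difference of -0.22 log2 units between bone with marrow and cortical bone under vitamin A. Rows listed as granulocyte genes had -0.15 and those listed as B lineage genes 0.34. The other medians were -0.24 for osteoblast and osteocyte genes, 0.08 for osteoclast genes, -0.12 for skeletal muscle genes and 0.00 for endothelium, against -0.05 over all rows. These lists describe only the identifiers.

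Under vitamin A, 1 cortical bone array lay part of the way towards marrow. To place the arrays, an axis was drawn over all rows from the mean of the cortical bone arrays under vitamin A (position 0) to the mean of bone with marrow under vitamin A (position 1). Each of the 8 arrays was placed on the axis of the other 7. Cortical bone arrays 1, 2 and 3 stood at -0.01, 0.02 and 0.05, and array 4 at 0.46. Arrays 1 to 4 of bone with marrow stood at 0.88, 0.85, 1.06 and 0.90. Each of these positions is on the array's own axis. The cortical end includes array 4 for cortical bone arrays 1 to 3 but not for array 4, so the positions are not on a common scale. Each array stood nearer to the end of its own tissue. The SD of the positions was 0.22 (n = 4) in cortical bone and 0.09 in bone with marrow. Taken over different axes, these SDs do not measure the spread between arrays. Cortical bone array 4 is kept in the main values. The main counts are also given without it, and several of them without cortical bone array 1.

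**Figure D1:**
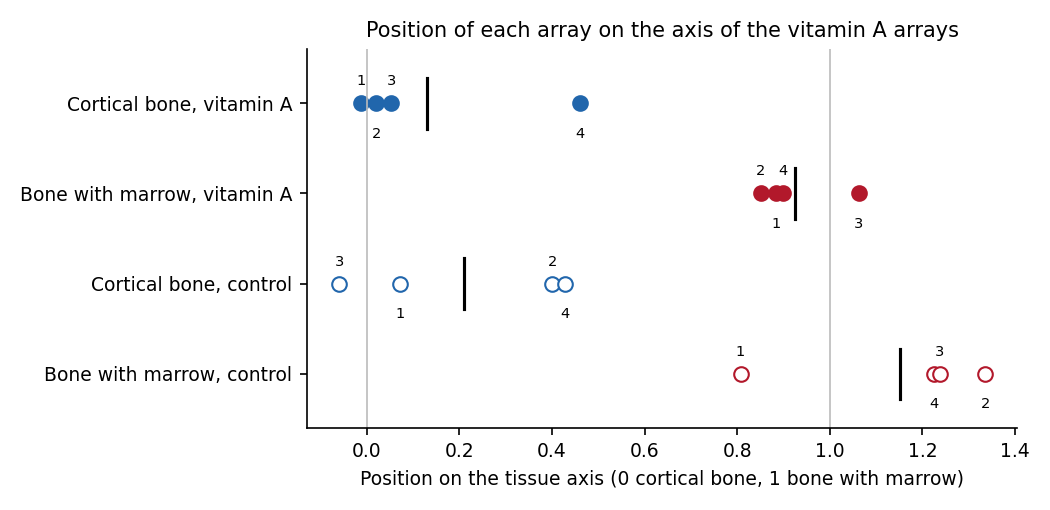
Position of the 16 arrays (x axis, no unit) between the vitamin A means of cortical bone (0) and bone with marrow (1), with 1 row of points per group, replicate numbers beside the points, filled points for vitamin A, open points for controls and a black bar for each group mean. Each vitamin A array is placed on the axis of the other 7, and the controls on the axis of all 8. Cortical bone array 4 under vitamin A stands at 0.46, apart from the other 3, and control cortical bone arrays 2 and 4 stand at 0.40 and 0.43. Control array 1 of bone with marrow stands at 0.81, below the other 3.

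The control arrays had no part in that axis and separated on it by tissue. Control cortical bone arrays 1 to 4 stood at 0.07, 0.40, -0.06 and 0.43. Control arrays 1 to 4 of bone with marrow stood at 0.81, 1.34, 1.24 and 1.22. No control array of bone with marrow fell below a cortical one, and the group means differed by 0.94 (exact two-sided permutation p = 0.0286, the smallest that 4 against 4 arrays can give). For array 1 of each control group the tissue field of the labels contradicts the title. By position, both lay on the side of their title. Without them the difference was 1.01 (exact permutation p = 0.1, the smallest that 3 against 3 can give).

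Pairs of arrays showed an uneven spread. The number of rows that differed at least 2-fold between any 2 arrays lay between 103 and 505 over the 6 pairs within bone with marrow, with a median of 334. Within cortical bone it lay between 156 and 1889, with a median of 651.5. Across the tissues it lay between 849 and 3336 over 16 pairs, with a median of 2032.5. Cortical bone arrays 1 and 4 differed from each other in 1889 rows, more than cortical bone array 4 differed from array 4 of bone with marrow (849). On average, array 1 differed from its fellow cortical arrays in 1181.7 rows and array 4 in 1041.7. In a principal component analysis of the 8 arrays, component 1 (52.7% of variance) placed every cortical array on the opposite side from every array with marrow. On that component, which is common to the 8 arrays, cortical bone arrays 1 to 4 scored -59.7, -39.7, -36.8 and -8.0. Array 1 thus also stood apart from arrays 2 and 3, on the side away from marrow. Component 2 (20.5%) had cortical bone arrays 1 and 4 at its opposite ends.

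Under vitamin A, 7755 of 31099 rows (24.9%) differed between the tissues, in nearly even numbers each way. At an adjusted p under 0.05 in limma, 4017 rows rose from cortical bone to bone with marrow (12.9% of those tested) and 3738 fell (12.0%). Most of the differences were small. The median size was 0.64 log2 units (1.56-fold) for higher rows and 0.58 (1.49-fold) for lower rows, and the median standard error over all rows was 0.13. Only 90 rows passed limma's treat, which tests for a difference beyond 1.5-fold, with 73 higher and 17 lower. Without cortical bone array 4, the counts at an adjusted p under 0.05 in limma were 4510 higher and 4810 lower. Without cortical bone array 1 they were 3544 and 3336.

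The groups of 4 arrays did not overlap in 7573 rows (24.4%), 3766 of them with marrow above (12.1%) and 3807 with marrow below (12.2%). Of the 7755 called rows, 6392 (82.4%) had no overlap. Without cortical bone array 4, which leaves 3 arrays against 4 and so fewer to overlap, marrow was above in 5067 rows and below in 6358. The fit pools the spread over all 16 arrays, controls included. A fit of the 8 arrays alone called 6426 rows, 3382 higher and 3044 lower, of which 6296 were also called in the fit of 16.

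**Figure D2:**
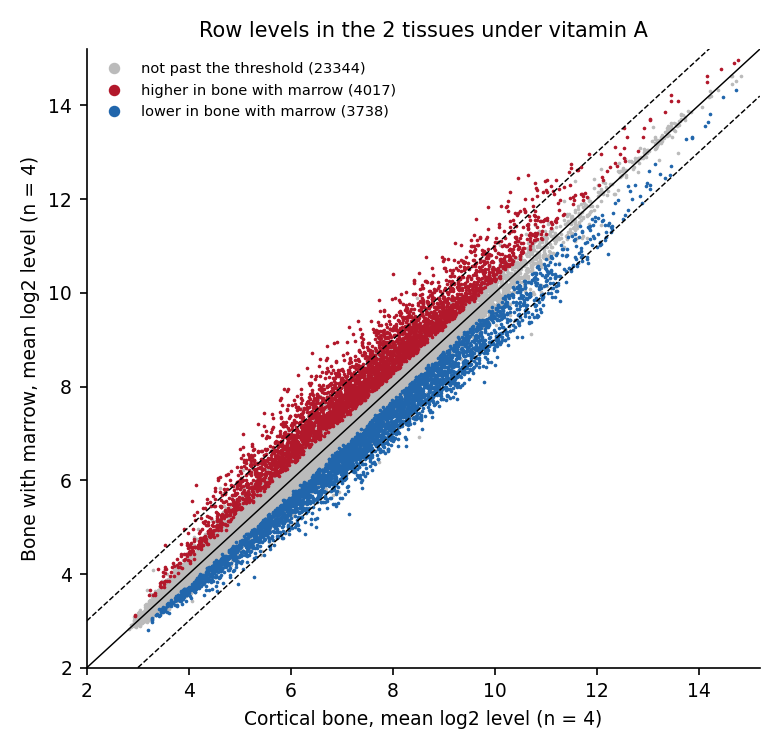
Mean log2 level of each row in bone with marrow (y axis, n = 4) against cortical bone (x axis, n = 4) under vitamin A. Red rows (4017) rose and blue rows (3738) fell with marrow at an adjusted p under 0.05 in limma, grey rows did not pass, the solid line marks equal levels and the dashed lines 2-fold. Most coloured rows lie inside the dashed lines, and the points beyond the upper line outnumber those beyond the lower.

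Large differences leaned towards bone with marrow. Of called rows that differed by under 0.5 log2 units, 1207 were higher and 1474 lower. Between 0.5 and 1 the counts were 1989 and 1859, and between 1 and 1.5 they were 684 and 399. Between 1.5 and 2 there were 123 higher rows and 6 lower ones, and 14 rows, all higher, differed by 2 or more. Without cortical bone array 4, the counts were 1177 and 2210 under 0.5, 2197 and 2102 from 0.5 to 1, and 872 and 486 from 1 to 1.5. From 1.5 up the main counts made 137 against 6, which became 264 against 12 without cortical bone array 4, 112 against 20 without array 2 and 102 against 10 without array 1. Without array 2 or array 4 of bone with marrow, 14 lower rows passed 1.5. Counted as called rows of at least 2-fold, this made 821 higher (2.64% of rows tested) and 405 lower (1.3%). The lean depended on single arrays and on the scaling in size but not in direction. At 2-fold it was 657 against 472 without cortical bone array 1, 1136 against 498 without array 4, and 734 against 535 after quantile normalization. In controls the lean ran the other way, with 84 higher and 280 lower between 1.5 and 2 log2 units. These counts were not tested against each other.

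Rows with a high level differed more often. Rows were split into 5 equal classes by their mean level over the 8 arrays. In the lowest class, below 4.28, 312 of 6220 rows (5.02%) were called, and in the highest, above 8.08, 2993 of 6220 (48.1%). The direction also shifted with level. The lowest class had 59 higher and 253 lower rows, the second 236 and 467, and the third 661 and 738. The fourth class had 1327 and 1021 and the highest 1734 and 1259. The counts of the lowest class moved with single arrays and with the fit. Higher against lower, they were 80 and 593 without cortical bone array 4, 56 and 146 without array 1, and 37 and 178 without array 2. They were 66 and 139 without array 1 of bone with marrow and 31 and 144 without its array 3. After quantile normalization they were 123 and 142, in the fit of the 8 arrays alone 38 and 118, with array weights 94 and 444, and with the contradictory control arrays grouped by tissue field 23 and 114. At an adjusted p under 0.01 they were 14 and 53, and with treat no row of the class was called. Without cortical bone array 4, the classes from the second to the highest had 281 and 838, 792 and 980, 1505 and 1099, and 1852 and 1300. The same lowest class held 161 higher and 117 lower rows in controls. The median difference of called rows in the highest class was 0.65 for higher rows and -0.66 for lower rows.

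**Figure D3:**
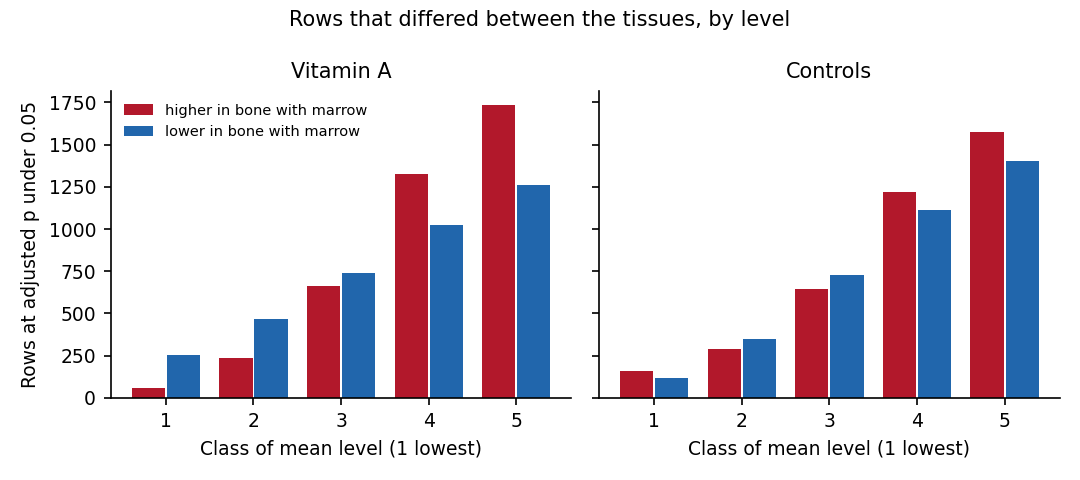
Number of rows called between the tissues (y axis, adjusted p under 0.05 in limma) in 5 classes of mean level over the 8 vitamin A arrays (x axis, 1 lowest), for vitamin A on the left and controls on the right. Red bars are rows higher in bone with marrow and blue bars rows lower there. Under vitamin A the lowest class has 59 higher and 253 lower rows and the highest 1734 and 1259.

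The arrays' own distributions were compared between the tissues. The interquartile range of the log2 levels was 3.29 ± 0.07 (SD, n = 4) in bone with marrow and 3.14 ± 0.15 in cortical bone, a difference of 0.15 (exact permutation p = 0.143, adjusted 0.206). The upper quartile was 7.77 ± 0.03 against 7.70 ± 0.06 (exact permutation p = 0.0571, adjusted 0.206). Of 6 such measures per array, none passed at an adjusted p under 0.05, with adjusted exact permutation p from 0.206 to 0.371. Their part in the split by level was not tested.

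Replicates varied more in cortical bone. The median SD over 4 arrays was 0.20 log2 units in cortical bone and 0.14 in bone with marrow, and the cortical SD was the larger in 69.7% of rows. It was the larger in 79.7% of the 821 rows that were at least 2-fold higher in bone with marrow and in 64.4% of the 405 that were at least 2-fold lower. The share over all rows fell to 57.9% without cortical bone array 4 and to 56.7% without cortical bone array 1. In controls it was 57.0%, with median SDs of 0.16 and 0.14. Without the 2 control arrays of contradictory label it was 65.5%, with median SDs of 0.17 and 0.12. These shares are descriptions, since rows are not independent.

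Cortical bone array 4 was the nearest to marrow in more rows than any other cortical array. The 4 arrays would have equal shares if none stood out. To avoid rows chosen on the arrays in question, the rows called between the tissues in controls were used. In the 3882 rows that were higher in bone with marrow of controls, cortical bone array 4 had the highest level of the 4 vitamin A cortical arrays in 46.2%. Array 1 had it in 25.5%, array 2 in 475 rows and array 3 in 623. In the 3710 rows that were lower in bone with marrow of controls, array 4 had the lowest cortical level in 39.7%. Array 1 had it in 31.0%, array 2 in 18.8% and array 3 in 10.5%. Array 1 came after array 4 in both sets, though it lay farthest from marrow on component 1. A large share here thus does not by itself mean a shift towards marrow.

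The 10 rows with the largest rise from cortical bone to bone with marrow differed by 2.07 to 2.40 log2 units, or 4.19-fold to 5.27-fold. Row 18300 was at 7.49, 7.98, 7.94 and 8.60 in cortical bone arrays 1 to 4 and at 10.44, 10.72, 10.86 and 9.59 in bone with marrow. The lowest array of bone with marrow lay 0.99 above the highest cortical one, and the difference was 2.40 ± 0.33 (SE; adjusted p in limma 0.000153). Row 11526 was at 5.50, 6.19, 6.49 and 7.52 in cortical bone and at 9.09, 8.44, 8.64 and 8.68 with marrow. Its cortical values spread over 2 log2 units, and array 4 came closest to marrow. The difference was 2.29 ± 0.35 (SE; adjusted p in limma 0.000259), and the mean difference was 2.65 without cortical bone array 4.

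Row 28228 was the clearest of the 10 by its standard error. It was at 5.59, 5.35, 6.35 and 6.23 in cortical bone and at 7.97, 8.04, 8.18 and 7.58 with marrow, and the log2 difference was 2.07 ± 0.25 (SE; adjusted p in limma 0.000124). Row 19624 was at 5.46, 5.80, 6.46 and 6.90 in cortical bone and at 8.46, 8.04, 8.20 and 8.27 in bone with marrow. Its SD was 0.65 in cortical bone and 0.17 in bone with marrow. Row 22074 had the narrowest gap of the 10, with cortical bone array 4 at 8.35 only 0.31 below the lowest array of bone with marrow. The other cortical arrays of that row were at 7.16, 6.55 and 6.49.

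Row 3899 had the highest adjusted p of the 10 although its groups stood widest apart. It was at 7.98, 8.65, 8.92 and 9.08 in cortical bone and at 10.70, 10.77, 11.08 and 10.49 in bone with marrow, a gap of 1.42. Its adjusted p was 0.0286 in limma over all arrays and 0.000207 in the fit of the 8 arrays alone. It missed the threshold without array 1, 2 or 3 of bone with marrow or without cortical bone array 1 or 2, at limma adjusted p from 0.0532 to 0.0778. With robust eBayes it missed it too (limma adjusted p = 0.059), and 8 of its 28 alternatives ended the call. In controls its groups overlapped, with cortical bone at 9.33, 7.19, 8.73 and 9.95 and bone with marrow at 7.88, 11.18, 7.91 and 10.86.

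Across the 10 rows, the cortical SD exceeded that of bone with marrow in 9. Cortical bone array 4 was the nearest to marrow in 9, the exception being row 28228 with array 3. Array 1 was the farthest in 6. In the control arrays all 10 were higher in bone with marrow, by 0.66 to 1.87 log2 units, and 9 were called there, the exception being row 3899. Of all rows, 12.5% were called higher in controls.

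The 10 rows with the largest fall from cortical bone to bone with marrow differed by 1.44 to 1.86 log2 units, or 2.72-fold to 3.64-fold, all smaller than the 10 rises. Row 465 had tight groups. It was at 10.60, 10.38, 10.70 and 10.51 in cortical bone arrays 1 to 4 and at 9.16, 9.20, 8.98 and 8.91 with marrow, and the log2 difference was -1.48 ± 0.15 (SE; adjusted p in limma 0.000116). Row 589 was at 7.11, 7.37, 7.89 and 7.22 in cortical bone and at 5.82, 6.04, 5.75 and 5.76 with marrow, and the log2 difference was -1.56 ± 0.17 (SE; adjusted p in limma 0.000116). In both rows the gap between the groups exceeded 1 log2 unit.

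Row 158 had the highest level of the 10. It was at 11.50, 11.07, 11.55 and 10.99 in cortical bone and at 9.87, 9.77, 10.01 and 9.71 in bone with marrow. Row 22067 had the largest fall and the widest spread, at 6.77, 7.26, 7.87 and 6.68 in cortical bone and at 4.44, 4.49, 5.97 and 6.23 in bone with marrow. Arrays 3 and 4 of bone with marrow lay well above arrays 1 and 2 there, and the difference was -1.86 ± 0.37 (SE; adjusted p in limma 0.00153). Row 401 had the narrowest gap, 0.15, with array 4 of bone with marrow at 9.35 against 7.92 to 8.44 in the other 3.

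In these 10 rows cortical bone array 4 was the nearest to marrow in 3 and array 2 in 5. The cortical SD was the larger in 5. All 10 were lower in bone with marrow of controls, by -2.03 to -1.10 log2 units, and all 10 were called there. Of all rows, 11.9% were called lower in controls.

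**Figure D4:**
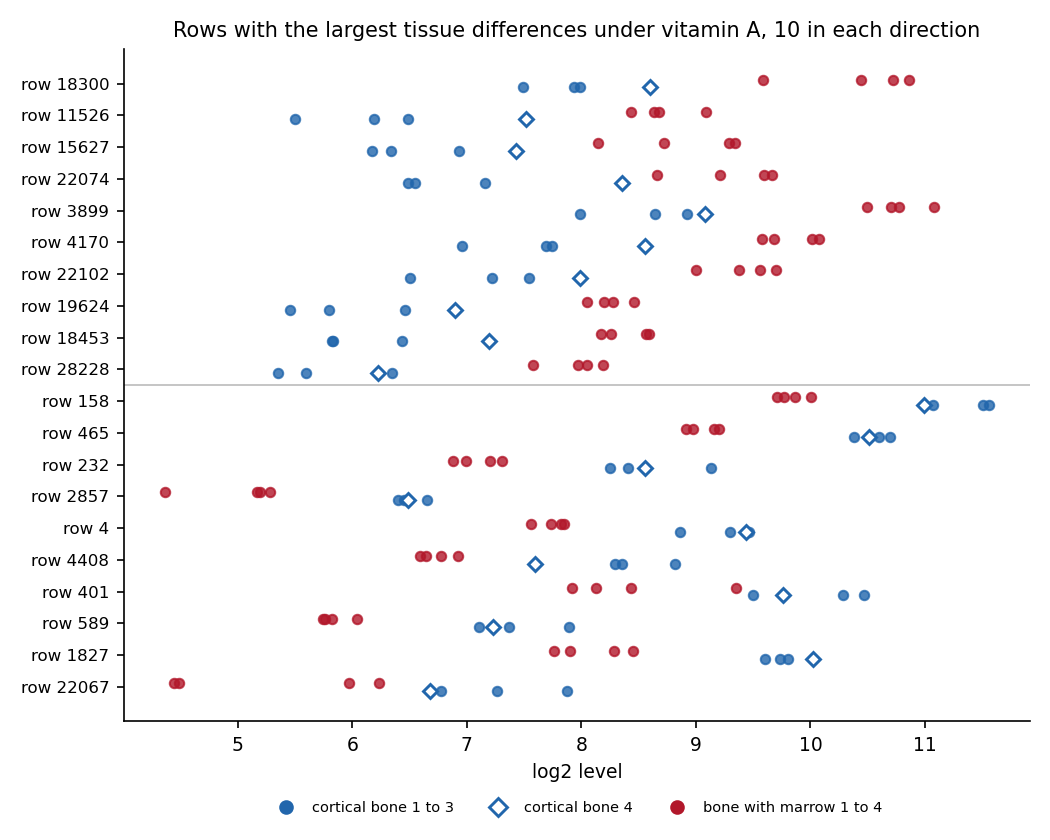
log2 level (x axis) of the 10 rows with the largest difference in each direction, from the rows called under vitamin A whose groups did not overlap, with 1 point per array. Blue points are cortical bone arrays 1 to 3, the open diamond is cortical bone array 4 and red points are the 4 arrays of bone with marrow. In the upper 10 rows the diamond is the cortical point nearest the red ones in 9.

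The rows with the smallest p were not those with the largest difference. Row 871 was at 5.30, 5.15, 5.24 and 5.43 in cortical bone and at 3.81, 3.95, 4.02 and 3.96 with marrow, and the log2 difference was -1.34 ± 0.12 (SE; adjusted p in limma 0.000116). It went from the 37.9th percentile of row levels in cortical bone to the 14.0th in bone with marrow. In controls its difference was -0.67, and the test of the difference between diets did not pass (-0.68, limma adjusted p = 0.861). Row 518 was at 8.59, 8.96, 9.02 and 9.30 in cortical bone and at 11.04, 10.55, 10.86 and 10.66 in bone with marrow, and rose by 1.81 ± 0.19 (SE, limma adjusted p = 0.000116). Row 4622 rose by 1.61 ± 0.16 and row 81 fell by 1.31 log2 units, both at the same adjusted p in limma.

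Low rows gave smaller differences. In the lowest class of level, row 68 had the largest rise, from 3.59, 3.59, 3.38 and 3.59 in cortical bone to 4.84, 3.94, 4.92 and 4.82 in bone with marrow. Array 2 of bone with marrow lay apart from the other 3. The difference was 1.09 ± 0.17 (SE; adjusted p in limma 0.000332), and in controls 0.40 (limma adjusted p = 0.107). Row 1362 had the largest fall of that class, -0.90 ± 0.14 (SE, limma adjusted p = 0.000294). In the next class, row 27262 stood at the 16.5th percentile of levels in cortical bone and at the 48.4th in bone with marrow. It rose by 1.76 ± 0.40 (SE, limma adjusted p = 0.00418), and by 1.77 in controls. In the middle class, row 8491 rose from 5.01, 5.27, 5.71 and 5.92 to 7.53, 7.21, 7.81 and 7.18, with a difference of 1.96 in both diets.

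The smallest called differences were close to the bottom of the arrays' range. Row 21166 was at 2.95 ± 0.08 (SD, n = 4) in cortical bone and 3.12 ± 0.01 in bone with marrow (limma adjusted p = 0.03). Row 25979 was at 3.43 ± 0.11 and 3.25 ± 0.05, with groups that overlapped (limma adjusted p = 0.05 after rounding, under the threshold). In the fit of the 8 arrays alone their adjusted p was 0.0781 and 0.108, so neither was called there. Row 21166 missed the threshold without any 1 array of bone with marrow and without cortical bone array 1 or 2 (limma adjusted p from 0.0539 to 0.0877). Row 25979 missed it under 24 of 27 alternatives.

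Some rows varied far more between arrays of 1 tissue than between the tissues. These were chosen for their spread and are described without a test. Row 30052 ranged from 5.40 in array 1 to 9.65 in array 4 of cortical bone and from 3.71 in array 2 to 8.41 in array 1 of bone with marrow, and it covered 7.91 log2 units over the 16 arrays. Row 21523 was at 5.76, 3.53, 5.45 and 9.52 in cortical bone and at 6.29, 3.99, 6.27 and 5.92 in bone with marrow. Row 30239 was at 5.53, 5.53, 6.09 and 9.68 in cortical bone and at 7.96, 4.99, 6.10 and 6.73 in bone with marrow. In these 3 rows cortical bone array 4 was the highest of the 8 arrays, and control cortical bone array 1 was the highest of all 16. In row 9902 the highest of all 16 was the vitamin A array 4 of bone with marrow, at 8.11, and array 2 was low in both tissues, at 3.49 and 3.52.

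The tissue difference had largely the same direction in the control arrays, which share none of the 8 arrays but share the pooled spread. Of the 4017 rows called higher under vitamin A, 4005 (99.7%) were also higher in controls and 2945 (73.3%) were called higher there, where 12.5% of all rows were. Of the 3738 called lower, 3643 (97.5%) were lower in controls and 2754 (73.7%) were called lower, where 11.9% of all rows were. Without cortical bone array 4, 68.5% of the rows called higher and 57.8% of those called lower were called in the same direction in controls, and 99.1% and 90.2% had the same sign. With all arrays, row 229 alone was called in opposite directions, at -0.22 ± 0.08 (SE) under vitamin A and 0.26 ± 0.08 in controls. Its difference of tissue differences was -0.48 ± 0.11 (SE, limma adjusted p = 0.642). Across all rows, which are not independent, the tissue differences in the 2 diets had Pearson's r of 0.874. Without the 2 control arrays of contradictory label it was 0.873.

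Sizes were less alike than directions. The 821 rows at least 2-fold higher under vitamin A had a median of 1.22 log2 units there and 1.05 in controls. The 405 rows at least 2-fold lower had a median of -1.11 under vitamin A and -1.46 in controls, and in 336 of them (83.0%) the control difference was the larger. The rows were chosen on their vitamin A values, a choice that by itself favours larger values under vitamin A than in controls. In the rows chosen in controls, the 592 at least 2-fold higher had medians of 1.18 in controls and 1.25 under vitamin A. The 1092 at least 2-fold lower had -1.30 and -0.91. A choice on control values in turn favours larger values in controls. Without cortical bone array 4, the rows at least 2-fold lower had medians of -1.12 under vitamin A and -1.37 in controls, and in 73.9% the control difference was the larger. Those at least 2-fold higher had 1.27 and 0.96. Without the 2 contradictory control arrays, the control medians of the 821 and 405 rows were 1.10 and -1.64.

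**Figure D5:**
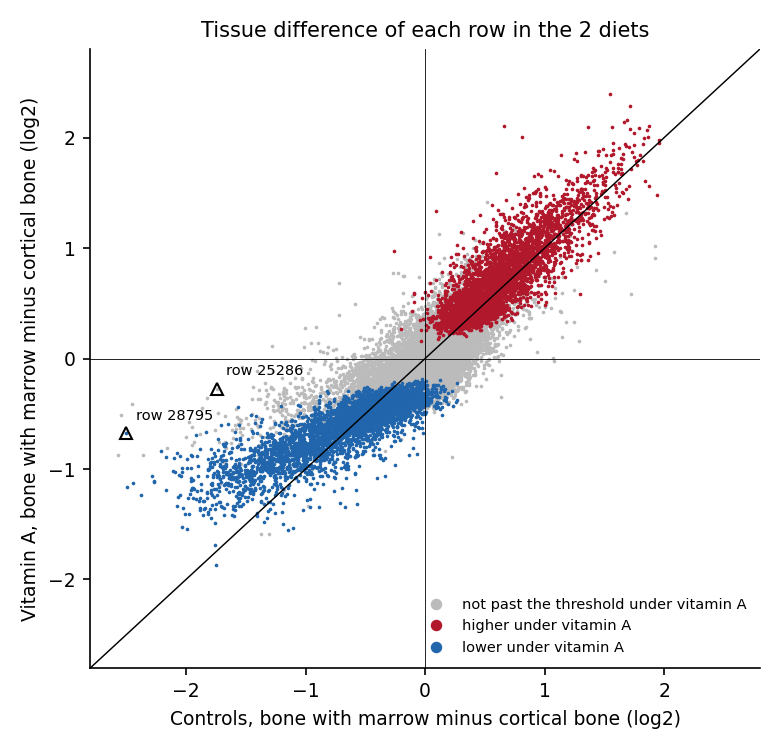
Tissue difference (bone with marrow minus cortical bone, log2) of each row under vitamin A (y axis, 4 arrays a tissue) against controls (x axis, 4 arrays a tissue). Red and blue rows were called higher and lower under vitamin A, grey rows were not called, triangles mark rows 25286 and 28795, and the diagonal marks equal differences. Most rows called lower with large differences in controls lie above the diagonal, nearer to 0 under vitamin A. Picking rows by a large control difference favours this by itself.

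Tested row by row, the tissue difference under vitamin A departed from that in controls in 1 row (0.00322% of rows tested). Unadjusted p was under 0.05 in 1242 rows (3.99%), a share below the 0.05 that this threshold gives when no row differs. Row 25286 was at 3.77, 3.86, 3.99 and 4.12 in cortical bone under vitamin A and at 3.61, 3.82, 3.53 and 3.67 in bone with marrow, groups that overlapped. In controls it was at 5.74, 5.34, 5.48 and 4.89 in cortical bone and at 3.82, 3.60, 3.60 and 3.45 in bone with marrow. Its tissue difference was thus -0.27 under vitamin A and -1.74 in controls (difference 1.47 ± 0.20 SE, limma adjusted p = 0.0385). The row was in the lowest class of level. Under vitamin A it stood at percentile 12.2 of row levels in cortical bone and 8.32 in bone with marrow, near the bottom of the range. Over the alternatives other than treat, the adjusted p in limma ran from 0.000703 to 0.986. With treat included, 15 of 26 alternatives ended the call. Among them were 6 of the 8 that each left out 1 vitamin A array, all but cortical bone array 4 and array 3 of bone with marrow. So were 5 of the 8 that each left out 1 control array.

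The other rows with the smallest p in that test did not pass. Row 28795 was at 4.10, 3.90, 4.45 and 4.88 in cortical bone and at 3.80, 3.72, 3.31 and 3.79 in bone with marrow under vitamin A. It too was in the lowest class of level. Its tissue difference was -0.68 under vitamin A and -2.50 in controls (limma adjusted p = 0.0558), and 4 of 26 alternatives brought it past the threshold, among them those without cortical bone array 4 (0.00741), without array 3 of bone with marrow (0.0268) and without control cortical bone array 2 (0.0357). In the other direction, row 9070 had -0.43 under vitamin A and 0.24 in controls (limma adjusted p = 0.469). Row 21320 had 0.33 and 1.18 (limma adjusted p = 0.522).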

How the data were processed

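Log2 expression levels were used as the authors deposited them. The submitters' processing notes name RMA, with no version. No count or depth exists for arrays, and the number of arrays limits the precision. Arrays were grouped by title, and no scan or extraction batch is named in the labels. A linear model with 4 group means was fitted to all 16 arrays in limma 3.58.1 under R 4.3.3, with eBayes moderation that follows mean level, leaving 12 residual degrees of freedom. Tests had 2 sides, with Benjamini-Hochberg adjustment across 31099 rows, and an adjusted p under 0.05 counted as a call. Differences are bone with marrow minus cortical bone. The fit was tested on simulated data. Per-array values were compared by exact permutation tests (scipy 1.17.1).

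Rows named are, among called rows whose groups did not overlap, the 10 largest differences in each direction, the 2 smallest p in each direction and the largest in each class of level. Rows with the largest SD, the smallest called difference and the smallest p for the difference between diets were added. Row 229 was chosen after its values were seen. The arrays compared, the marker lists and the rules were chosen with earlier results of these data known. The row order follows the vitamin A effect in bone with marrow (Spearman -0.999 of row number with the size of limma's t), so a row's number is not neutral. Alternatives covered scaling, filters, thresholds, eBayes settings, array weights, a replicate block, the contradictory control arrays and each array left out. Figures used matplotlib 3.10.9.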

Additional observations from a re-analysis of the deposited data

Results flagged for a closer look

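Of 92 groups of 4 arrays looked at, 10 had 1 array whose gap to its neighbour, as a share of the group's range, exceeded Dixon's 95% critical value. About 4.6 would be expected if the groups were independent and not chosen by their values. The named rows were chosen on these same arrays, some for their large SD, and the groups share arrays. The 2 counts can therefore not be compared as a test. On the tissue axis, cortical bone array 4 had position 0.46 while its 3 fellow arrays lay from -0.01 to 0.05, a gap of 0.864 of the range. This group is counted among the 10. Each of these positions is on the array's own axis, not a common scale, so this ratio cannot decide whether array 4 stood apart. On principal component 1, common to the arrays, cortical bone arrays 1 to 4 scored -59.7, -39.7, -36.8 and -8.0. There array 1 also lay apart, on the side away from marrow, and arrays 1 and 4 were the opposite ends of the group. Dixon's value was not applied to these scores. In bone with marrow under vitamin A, array 3 was low in row 2857 (4.36 against 5.16 to 5.28, a gap of 0.875 of the range), row 25979 (0.887) and row 28795 (0.835). Array 2 was low there in row 68 (3.94 against 4.82 to 4.92, 0.899) and row 21523 (3.99 against 5.92 to 6.29, 0.842), and array 4 in row 4622 (0.847). In cortical bone, array 3 was low in row 68 (0.995), over a range of only 3.38 to 3.59, and in row 21320 (0.839). Cortical bone array 4 was high in row 30239, at 9.68 against 5.53 to 6.09 (0.866). In row 25286 the tissue difference under vitamin A departed from that in controls by 1.47 log2 units in the test of the difference itself.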

How the results depend on the processing

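Of 28 alternatives, 25 left the 7755 calls within 1.5 times, between 5932 and 9320 without single arrays. The number called was 3980 (2299 higher, 1681 lower) with the contradictory control arrays grouped by tissue field, 4535 (2469 higher, 2066 lower) at an adjusted p under 0.01, and 90 with treat against 1.5-fold. Treat left 73 rows higher and 17 lower, all beyond 2-fold. The tissue difference in controls had 7592 calls, 0 by tissue field, 4801 at 0.01, 782 with treat, 11472 with array weights, and 5547 to 8370 without single arrays. The difference between diets had 1 call, 3 with array weights and 0 by tissue field, without trend, without rows of low level, at 0.01 and with treat. Leaving out rows of low level also left out row 25286, so that row was not tested there. Without single arrays the difference between diets had 0 to 3 calls. The control arrays' difference in position was 0.79 to 1.06 without single arrays and 1.01 without both contradictory ones, where fewer arrays cannot reach the threshold. The replicate block called 8293 rows. Same-numbered arrays deviated together with r from -0.128 to 0.446 under vitamin A and from -0.112 to 0.264 in controls, over 0.1 in 3 of 4 pairs in each diet. In 3 of 4 vitamin A and 2 of 4 control cortical arrays the best match was the same number, a hint from the data. The numbers were not taken as pairs, as 1 pair in each diet was below 0. That does not exclude pairing, which 4 pairs a diet cannot settle. Of 30 named rows, 16 kept their call under every alternative. None changed sign, which for most alternatives was fixed in advance. All but row 25979 had groups without overlap, where leaving out an array cannot reverse the sign. Other eBayes settings, thresholds or control arrays leave the difference itself as it was. Quantile normalization gives each array the same distribution, so the per-array measures have no value under it. The position without contradictory arrays, the lowest class of level, the alternatives for controls and the further counts without cortical bone array 4 were added after the data were seen. Causes of these changes were not tested.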
